A study of Homo sapiens with 4 samples.

Results

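The aldo-keto reductases AKR1C1, AKR1C2, AKR1C3 and AKR1B10 and 6 further genes of the oxidative stress response, NQO1, HMOX1, GCLM, GCLC, TXNRD1 and SRXN1, were examined in U937 cells that express the leukemia fusion protein AML1/ETO. All probe sets annotated to these 10 genes were taken, also those naming several AKR1C genes, which gave 24 of the 54613 probe sets that are not array controls, and 10 of the 19775 genes with a probe set of their own. The genes were chosen with their signals on these arrays known, so their differences between the cell lines are a description and carry no test.

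U937 cells are human leukemia cells with monocytic features. The U937-AE line is 1 clone, in which HA-tagged AML1/ETO is driven by the zinc-inducible mouse metallothionein promoter of the pSG-MtNEO vector, and the U937-Mt line is a bulk population transfected with the same vector without an insert. ZnSO4 at 100 µM was given to both lines for 8 hours, so zinc is common to the groups. Each line gave 1 RNA pool, mixed from 3 extractions, which was read on 2 HG-U133 Plus 2.0 arrays from Affymetrix that the labels number as replicates. There are thus 4 arrays of 2 pools, the spread between array copies covers hybridization error only, no p-value is given for the cell lines, and the induced protein and the choice of a clone cannot be told apart.

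NRF2, encoded by NFE2L2, is a transcription factor that KEAP1 marks for degradation through a CUL3 ubiquitin ligase. Electrophiles and oxidants modify KEAP1, NRF2 then accumulates, pairs with a small MAF protein and binds the antioxidant response element, a site for which BACH1 and BACH2 compete as repressors. Its known targets make glutathione, reduce thioredoxin, supply NADPH, clear heme and iron, and reduce quinones and carbonyls. The AKR1C genes stand side by side on chromosome 10 and encode NADPH-dependent reductases of steroids, prostaglandins and reactive aldehydes. They are counted among the genes that respond most to NRF2 in human cells.

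Promoters of 8 of the 10 genes were found by symbol in a RefSeq table of GRCh38.p14, each spanning 250 bases before to 50 bases after a transcription start. Those of the AKR1C genes are shown because these genes were higher together in U937-AE, and those of GCLM and TXNRD1 because they hold the core of the antioxidant response element. Capitals mark each match, on either strand, to that core (TGACNNNGC) or to the core that RUNX factors such as AML1 bind (TGTGGT, or ACCACA on the other strand). The AKR1C1 window is chr10:4963165-4963464 on the plus strand, that of AKR1C2 is chr10:5003808-5004107 on the minus strand, and those of AKR1C3 are chr10:5048531-5048830 and chr10:5094164-5094463 on the plus strand. The GCLM window is chr1:93909381-93909680 on the minus strand and that of TXNRD1 is chr12:104215529-104215828 on the plus strand.
AKR1C1: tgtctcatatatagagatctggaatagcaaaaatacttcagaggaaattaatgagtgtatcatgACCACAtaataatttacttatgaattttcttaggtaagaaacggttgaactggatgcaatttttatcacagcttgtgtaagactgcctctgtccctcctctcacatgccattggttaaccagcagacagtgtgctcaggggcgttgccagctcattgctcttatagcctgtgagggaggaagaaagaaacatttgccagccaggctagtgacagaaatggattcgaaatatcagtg
AKR1C2: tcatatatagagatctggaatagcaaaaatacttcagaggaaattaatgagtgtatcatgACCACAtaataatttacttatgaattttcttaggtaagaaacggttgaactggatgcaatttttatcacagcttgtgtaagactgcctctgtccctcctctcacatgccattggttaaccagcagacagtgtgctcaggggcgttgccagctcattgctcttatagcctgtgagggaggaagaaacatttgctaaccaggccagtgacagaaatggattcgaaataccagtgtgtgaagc
AKR1C3 start site 1: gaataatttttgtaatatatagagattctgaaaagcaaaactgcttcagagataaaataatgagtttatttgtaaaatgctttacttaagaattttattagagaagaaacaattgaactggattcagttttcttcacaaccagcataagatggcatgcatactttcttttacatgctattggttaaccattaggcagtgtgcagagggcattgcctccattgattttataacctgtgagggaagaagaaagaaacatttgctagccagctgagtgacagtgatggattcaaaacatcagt
AKR1C3 start site 2: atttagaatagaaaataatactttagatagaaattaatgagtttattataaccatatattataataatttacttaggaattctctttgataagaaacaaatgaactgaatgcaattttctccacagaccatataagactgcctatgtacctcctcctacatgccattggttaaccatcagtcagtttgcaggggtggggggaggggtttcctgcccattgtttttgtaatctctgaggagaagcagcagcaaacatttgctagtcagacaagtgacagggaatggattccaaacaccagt
GCLM: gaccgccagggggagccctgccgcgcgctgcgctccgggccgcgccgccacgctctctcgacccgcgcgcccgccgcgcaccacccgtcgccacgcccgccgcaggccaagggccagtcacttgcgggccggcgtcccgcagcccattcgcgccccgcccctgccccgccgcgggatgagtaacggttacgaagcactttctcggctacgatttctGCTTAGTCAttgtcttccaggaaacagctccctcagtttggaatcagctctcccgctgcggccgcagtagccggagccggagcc
TXNRD1 start site 1: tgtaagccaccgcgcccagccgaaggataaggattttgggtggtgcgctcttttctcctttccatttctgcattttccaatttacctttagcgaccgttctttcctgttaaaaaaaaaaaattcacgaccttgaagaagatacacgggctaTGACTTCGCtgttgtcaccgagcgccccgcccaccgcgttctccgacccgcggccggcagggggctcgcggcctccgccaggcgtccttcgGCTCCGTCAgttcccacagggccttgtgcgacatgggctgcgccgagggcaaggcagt

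The promoters of AKR1C1 and AKR1C2 were nearly the same sequence, with 288 of 292 aligned bases identical (98.6%). AKR1C3 was further off, with 78.0% and 79.5% identity to AKR1C1 at its start sites 1 and 2, and 77.7% and 80.6% to AKR1C2. The RUNX core lay 186 bases before the start of AKR1C1 and 190 bases before that of AKR1C2, and was not in the AKR1C3 windows. It was found in 13.1% of the 35116 promoters of the table. The antioxidant response element core was in 13.3% of them. GCLM held it 34 bases before its start, and TXNRD1 held it 99 and 8 bases before start site 1 and 102 bases before start site 2, where a RUNX core also lay at 183 bases. The AP-1 site (TGANTCA, either strand), which can overlap an antioxidant response element, was in 7.71% of all promoters and in none of the 10 windows of these genes. A match of letters in this short window is a description and not a binding site.

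The deposited value is a signal intensity per probe set on a linear scale. Signals under the median of an array (119.5 and 129.7 in U937-AE, 146.8 and 153.6 in U937-Mt) were raised to it as a floor, and log2 was taken. A probe set was called higher or lower where every pairing of an array of one line with an array of the other (4 comparisons) exceeded 1.5-fold the same way, and a gene was read from its brightest probe set with a single gene symbol. Where a pool was at the floor on both arrays, the fold is a bound. A probe set below the floor on all 4 arrays has a difference of -0.27 by construction. A gene is called measured here where its mean log2 signal reached the mean floor in at least 1 pool. Where groups are said not to overlap, 2 array copies of 1 pool stand on each side. This is a description only, and the share of all probe sets without overlap is not given. RUNX1T1, the gene of ETO, checks the labels: 1 of its 7 probe sets was called, reading 1362 and 1299 on the U937-AE arrays against 8.6 and 7.6 on the U937-Mt arrays (at least 8.86-fold higher), and 5 were below the floor on all arrays.

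Of the 24 probe sets, 9 were called higher and 3 lower in U937-AE, and 12 were not called. Over all probe sets of the array, 1.29% were called higher and 2.74% lower. By gene, AKR1C1, AKR1C2, AKR1C3 and HMOX1 were called higher, GCLM was called lower, and AKR1B10, NQO1, GCLC, TXNRD1 and SRXN1 were not called. Among the 12934 measured genes 2.6% were called higher and 6.12% lower. These shares stand beside the counts only, since the signals chose the genes. The 10 genes had a median log2 difference of 0.47, and all measured genes of -0.10. All 10 were measured, and 9 of them, all but AKR1B10, were above the floor on all 4 arrays.

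**Figure D1:**
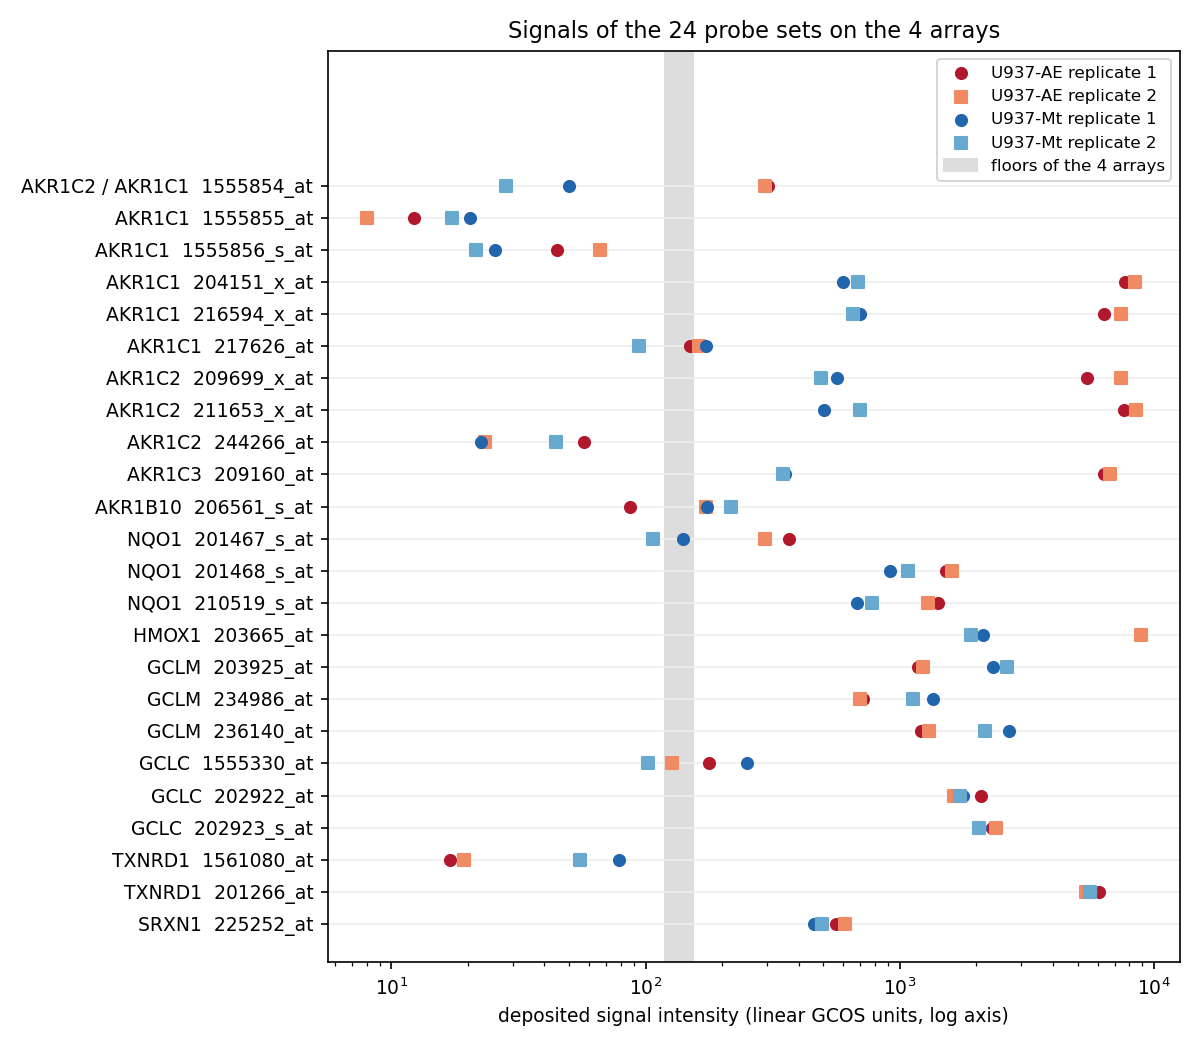
Deposited signal intensity (x axis, linear units on a log axis) of the 24 probe sets (rows) on the 4 arrays (points), with the range of the 4 array floors as a grey band. The U937-AE points of AKR1C3, HMOX1 and the _x_at probe sets of AKR1C1 and AKR1C2 lie far to the right of the U937-Mt points, whereas those of GCLM lie to the left.

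The AKR1C genes were the most raised of the set. AKR1C3 makes testosterone from androstenedione and reduces prostaglandin D2. Its single probe set, 209160_at, gave 6360 and 6705 on the U937-AE arrays against 354.9 and 348.2 on the U937-Mt arrays. Both U937-AE arrays were thus far above both U937-Mt arrays, and the copies of a pool differed little (1.05-fold and 1.02-fold). The difference was 4.22 on the log2 scale, or 18.6-fold (17.9 to 19.3 over the 4 comparisons). Among the 10678 genes that passed the floor on each array, no difference was higher. The suffix _at marks a probe set designed for 1 transcript, but which AKR1C transcripts each probe set binds was not analysed here, and 1555854_at, of the same suffix, is annotated to both AKR1C2 and AKR1C1.

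AKR1C2 inactivates dihydrotestosterone. Its brightest probe set, 211653_x_at, gave 7625 and 8504 on the U937-AE arrays against 503.3 and 695.5 on the U937-Mt arrays, a 13.6-fold difference (11.0 to 16.9, log2 3.77). A second one, 209699_x_at, gave 5473 and 7442 against 568.3 and 489.6 (12.1-fold, 9.63 to 15.2, log2 3.60). The groups did not overlap on either, although the U937-Mt copies of the first differed by 1.38-fold and the U937-AE copies of the second by 1.36-fold. The remaining probe set, 244266_at, was below the floor on all arrays, reading 57.4 and 23.3 on the U937-AE arrays against 22.5 and 44.5 on the U937-Mt arrays.

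AKR1C1 inactivates progesterone. Its brightest probe set, 204151_x_at, gave 7671 and 8384 on the U937-AE arrays against 600.3 and 682.9 on the U937-Mt arrays, a 12.5-fold difference (11.2 to 14.0, log2 3.65). On 216594_x_at the signals were 6384 and 7389 against 700.6 and 655.6 (10.1-fold, 9.11 to 11.3, log2 3.34). Both showed the cell lines well apart. The 3 remaining probe sets of AKR1C1 alone did not. Signals on 217626_at were 150.1 and 163.0 on the U937-AE arrays against 172.7 and 94.2 on the U937-Mt arrays, which overlap (log2 difference -0.06). Below the floor on every array were 1555855_at, with 12.3 and 8.0 against 20.4 and 17.4, and 1555856_s_at, with 45.0 and 66.4 against 25.5 and 21.6. The probe set 1555854_at, which names AKR1C2 and AKR1C1 together, gave 304.4 and 294.8 on the U937-AE arrays against 49.8 and 28.3 on the U937-Mt arrays, at least 1.99-fold higher (1.92 to 2.07).

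The suffix _x_at marks a probe set whose probes can bind other transcripts as well. All 4 AKR1C probe sets with that suffix were called higher, with log2 differences from 3.34 to 3.77, and 2 of the 6 with another suffix, those of AKR1C3 and of AKR1C2 and AKR1C1 together. Of the other 4, 3 were below the floor on all arrays. The signal of the _x_at probe sets cannot be divided between AKR1C1, AKR1C2 and their near-identical relatives, and read without the suffixes _x_at and _s_at neither AKR1C1 (log2 difference -0.06) nor AKR1C2 (-0.27, below the floor) was called. The higher signal was thus carried for AKR1C3 by a probe set of suffix _at, and for AKR1C1 and AKR1C2 by probe sets that these genes may share. AKR1B10, a related reductase of retinal and other aldehydes, gave 86.8 and 173.7 on the U937-AE arrays against 174.9 and 217.5 on the U937-Mt arrays. Its signals lay near the floor, and its log2 difference of -0.44 (-0.86 to -0.01) was not called.

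**Figure D2:**
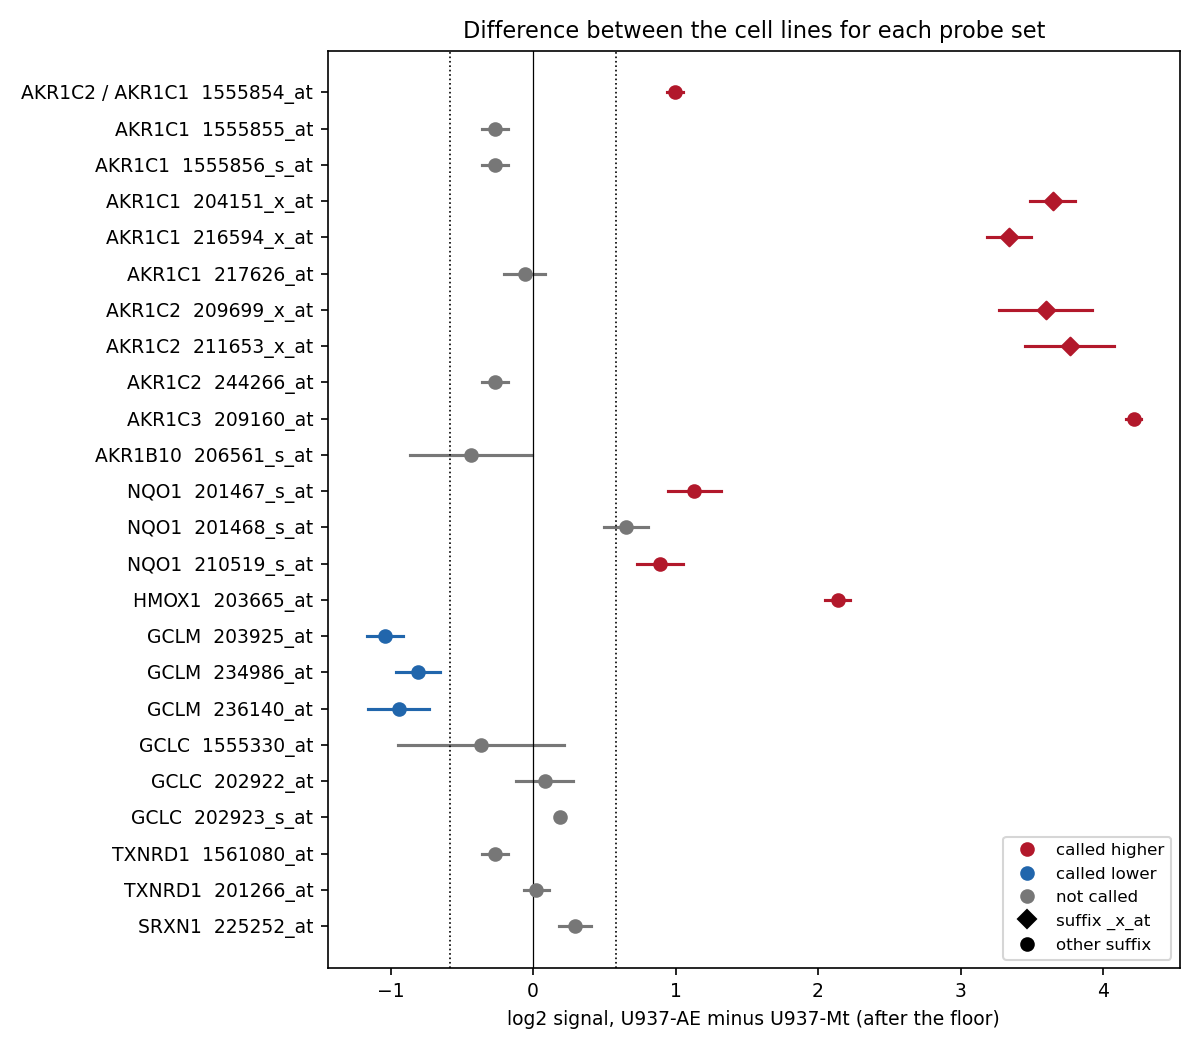
Mean log2 difference, U937-AE minus U937-Mt (x axis), of each of the 24 probe sets (rows), with the range of the 4 array comparisons as a line and 1.5-fold in either direction as dotted lines. The 4 _x_at probe sets, drawn as diamonds, lie between 3.34 and 3.77, with AKR1C3 at 4.22 above them and the 3 GCLM probe sets between -1.04 and -0.81.

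Among the NRF2 targets outside the reductase cluster, HMOX1 was higher, NQO1 was higher on 2 of 3 probe sets, and GCLM was lower on all of its own. HMOX1 encodes the inducible heme oxygenase, which breaks heme into biliverdin, iron and carbon monoxide. On 203665_at it gave 8807 and 8888 on the U937-AE arrays against 2128 and 1902 on the U937-Mt arrays, a 4.40-fold difference (4.14 to 4.67, log2 2.14). The copies of each pool lay close together, and the cell lines far apart. By size of the difference HMOX1 stood at position 14 of those 10678 genes.

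NQO1 reduces quinones to hydroquinones and is widely used as a readout of NRF2. Its brightest probe set, 201468_s_at, gave 1522 and 1602 on the U937-AE arrays against 917.2 and 1077 on the U937-Mt arrays, a 1.57-fold difference (1.41 to 1.75, log2 0.65). The groups did not overlap, but 1 or more of the 4 comparisons fell short of 1.5-fold, so NQO1 was not called as a gene. It was called without the second U937-Mt array (log2 0.77). On 210519_s_at the signals were 1413 and 1292 against 681.4 and 780.5 (1.85-fold, 1.66 to 2.07), and this probe set was called higher. So was 201467_s_at, with 365.9 and 296.2 against 140.9 and 107.3, at least 2.19-fold higher (1.93 to 2.49). All 3 probe sets lay higher on both U937-AE arrays, which with 2 copies of each pool is a description only.

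Glutamate-cysteine ligase makes the first step of glutathione synthesis from a catalytic subunit, GCLC, and a modifier subunit, GCLM. GCLM was lower in U937-AE on each of its 3 probe sets. The brightest, 236140_at, gave 1210 and 1307 on the U937-AE arrays against 2698 and 2164 on the U937-Mt arrays, a 1.92-fold lower signal (1.66 to 2.23, log2 -0.94). On 203925_at it gave 1174 and 1236 against 2327 and 2640 (log2 -1.04), and on 234986_at 715.6 and 694.7 against 1353 and 1126 (log2 -0.81). All 3 probe sets were called lower, beside 2.74% of all probe sets of the array. GCLC, its partner, was not called. Its brightest probe set, 202923_s_at, gave 2308 and 2383 on the U937-AE arrays against 2063 and 2056 on the U937-Mt arrays (log2 0.19, 0.16 to 0.21). Both U937-AE arrays were higher than both U937-Mt arrays here, but the difference was well under 1.5-fold. The other probe sets of GCLC overlapped between the cell lines, with 2093 and 1635 against 1774 and 1726 on 202922_at (log2 0.08) and 178.3 and 127.0 against 249.8 and 102.7 on 1555330_at (log2 -0.37).

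TXNRD1 is the selenoenzyme that keeps thioredoxin reduced, and SRXN1, sulfiredoxin, restores overoxidized peroxiredoxins. TXNRD1 gave 6047 and 5387 on the U937-AE arrays against 5643 and 5599 on the U937-Mt arrays on 201266_at, which overlap (log2 0.02, -0.07 to 0.11). Its other probe set, 1561080_at, was below the floor on all arrays, with 17.0 and 19.4 against 79.0 and 55.0. SRXN1 gave 558.7 and 610.2 against 459.9 and 493.3 (log2 0.29, 0.18 to 0.41), higher on both U937-AE arrays but under 1.5-fold in each comparison. With the floor, no difference of 1.5-fold in all comparisons was thus seen for TXNRD1, SRXN1 or GCLC. Without a floor 1561080_at was called lower (-1.86), from signals that were all below the medians of the arrays. Since each cell line is 1 pool, this does not show that their levels were the same.

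The values depended on the scaling of the arrays. The deposited signals have the same trimmed mean on each array, under which the median measured gene lay at -0.10. Shifting the arrays to the same median added 0.27 to that median, and scaling them to the same signal of the 18 hybridization spike-in probe sets added 0.34. Of all called genes 70.2% were lower with the deposited scaling, 62.1% after quantile normalization, 29.8% with equal medians and 17.5% with equal spike-ins. AKR1C1, AKR1C2, AKR1C3 and HMOX1 were called higher under all 4. GCLM was lower in sign under all 4 and called under quantile normalization (-0.98), but not with equal medians (-0.67) or spike-ins (-0.60). NQO1 was called higher with equal medians (0.92) and with equal spike-ins (1.00). The split of called genes was thus 4 higher and 1 lower as deposited and after quantile normalization, and 5 higher and 0 lower under the other scalings. For probe sets it was 9 and 3, 9 and 3, 10 and 1 with equal medians, and 10 and 0 with equal spike-ins. Over all probe sets of the array it was 707 and 1496 as deposited and 950 and 1044 after quantile normalization. With equal medians it was 2023 and 667, and with equal spike-ins 2850 and 508. TXNRD1 changed sign, from 0.02 as deposited to -0.09, 0.29 and 0.37, and was never called.

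Other genes of the NRF2 pathway were taken as 6 lists from textbook knowledge. Of 68 genes listed, 65 had a probe set and 57 were measured. Of these, 1 was called higher, 4 lower and 52 not, with a median log2 difference of -0.07 beside the -0.10 of all measured genes. Among all measured genes 2.6% were called higher and 6.12% lower, so these counts lay near the shares of the array. The same shares stand beside the counts of the lists below. With equal medians the split was 4 higher and 2 lower, and with equal spike-ins 5 and 1 (medians 0.20 and 0.27). All 12934 measured genes turned the same way. Of them 911 were called higher and 387 lower with equal medians (median 0.17), and 1369 and 290 with equal spike-ins (median 0.24). The medians of the glutathione, thioredoxin, NADPH and quinone lists given below changed sign under 1 or more of the other scalings. MAFK and FTH1 were among those not analysed here. Genes of these lists that are named below without a call were, apart from the regulators, chosen after their values were seen.

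The regulators came first. NFE2L2, the gene of NRF2, gave 2312 and 2522 on the U937-AE arrays against 2607 and 2449 on the U937-Mt arrays, which overlap (log2 -0.07). KEAP1 gave 2869 and 2718 against 1862 and 2134 (log2 0.49, 0.35 to 0.62), higher on both U937-AE arrays without a call, but called with equal medians (0.76) and equal spike-ins (0.83). CUL3 (log2 0.42) and RBX1 (0.58), which build the ubiquitin ligase with KEAP1, were likewise not called, though RBX1 was with equal spike-ins (0.93). BACH1, the repressor of HMOX1 that heme releases, was at 0.16.

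Called among the 13 measured regulators were NFE2L3, BACH2 and MAFG. NFE2L3, a relative of NRF2, gave 2208 and 1840 on the U937-AE arrays against 896.6 and 871.3 on the U937-Mt arrays (2.28-fold higher, 2.05 to 2.53). It was called on both of its probe sets and under all 4 scalings. BACH2, which represses antioxidant response elements in B cells and other blood cells, gave 179.9 and 212.3 against 330.3 and 417.5 (1.90-fold lower, 1.56 to 2.32), and was called on 1 of its 2 probe sets and under the deposited scaling only. MAFG, a small MAF partner of both NRF2 and the BACH proteins, gave 834.3 and 980.3 against 1785 and 1589 (1.86-fold lower, 1.62 to 2.14), but with equal medians or spike-ins it was not called. Its second probe set was below the floor. The remaining regulators ranged from -0.07 to 0.26 (BTRC 0.22, GSK3B 0.04, SQSTM1 0.26, MAFF -0.07, NFE2L1 -0.01).

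In the glutathione and cystine list none of 17 measured genes was called (median -0.01). SLC7A11, the cystine transporter, gave 2004 and 1745 on the U937-AE arrays against 1871 and 1909 on the U937-Mt arrays, and GSR, glutathione reductase, 2028 and 1811 against 1766 and 2031. Both overlapped between the cell lines. ABCC1, a pump for glutathione conjugates, was at 0.47 and was called higher with equal medians (0.74) and equal spike-ins (0.81). On the lower side, GPX2 (-0.97, with U937-AE signals near the floor), MGST1 (-0.67) and SLC3A2 (-0.58) were called under none of the 4 scalings. None of 5 genes of the thioredoxin list was called (median -0.06). PRDX1 gave 16252 and 17208 against 12121 and 11404 (log2 0.51), called with equal medians (0.78) and equal spike-ins (0.85). SESN2 was lower, at -0.67, and was called under none of the 4 scalings. None of 4 measured genes for NADPH supply was called (median -0.16), and TALDO1, transaldolase, was at -0.63 and was called lower after quantile normalization (-0.71).

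Of 9 genes of the heme and iron list, 1 was called, and the median was -0.34. SLC48A1, the heme transporter that brings heme out of endosomes, gave 239.0 and 282.7 on the U937-AE arrays against 588.8 and 575.6 on the U937-Mt arrays (2.24-fold lower, 2.04 to 2.46). It was called lower on all 3 probe sets and under all 4 scalings, opposite in direction to HMOX1. FTL, the ferritin light chain, gave 27727 and 31488 against 39899 and 34874 (log2 -0.34) and was not called. Its sign turned after quantile normalization (0.036) and with equal spike-ins (0.0073), and it was -0.066 with equal medians. The median of the heme and iron list went to -0.15, -0.074 and -0.0012 under quantile normalization, equal medians and equal spike-ins. In the list of quinone and carbonyl detoxification 1 of 9 measured genes was called. PIR, pirin, gave 5.0 and 21.2 against 221.2 and 241.8 (at least 1.86-fold lower, 1.71 to 2.02), except with equal spike-ins, where it was not called. NQO2, a relative of NQO1, was at 0.36 without a call.

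Among the other aldo-keto reductases 1 gene was called higher and 1 lower. Of 12 listed, 8 had a probe set and 5 were measured. AKR1A1, AKR1B1, AKR1B15 and AKR7L were not analysed here. KCNAB1, a potassium channel subunit with an aldo-keto reductase fold, gave 361.3 and 352.4 on the U937-AE arrays against 141.7 and 213.8 on the U937-Mt arrays (2.01-fold higher, 1.65 to 2.46), called on 1 of 5 probe sets. Its relative KCNAB2 was lower (3558 and 3488 against 5948 and 5786, log2 -0.74), although not called with equal medians or spike-ins. AKR7A2, which reduces succinic semialdehyde, was at -0.13 and AKR7A3 at 0.10. AKR1C4, the liver form of the cluster, gave 44.6 and 132.7 against 57.5 and 20.0, near or below the floor throughout, and AKR1D1 was below the floor on all arrays. AKR1E2 (-0.37) was above the floor on 1 array of each pool, and KCNAB3 on none.

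None of the genes read on either side of AKR1C1, AKR1C2 and AKR1C3 was called. In the order of the RefSeq table, the protein-coding genes before AKR1C1 are PFKP, PITRM1, LOC124902565, KLF6 and AKR1E2, and those after AKR1C3 are AKR1C8, AKR1C4, UCN3, TUBAL3 and NET1. The 8 that could be read had log2 differences from -0.48 (KLF6) to 0.59 (PFKP). PFKP, a phosphofructokinase, gave 6516 and 6540 on the U937-AE arrays against 4525 and 4158 on the U937-Mt arrays, and was called higher with equal medians (0.86) and equal spike-ins (0.93). PITRM1 was at -0.24, UCN3 at -0.48, TUBAL3 at -0.33 and NET1 at 0.13. LOC124902565 and AKR1C8 were not analysed here.

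The steroid and prostaglandin enzymes around the AKR1C reductases were read as a further list. Of 22 genes with a probe set 15 were measured, and 1 was called lower, beside 6.12% of all measured genes. The median was -0.15 and turned positive under the other scalings. PTGS1, the cyclooxygenase that starts prostaglandin synthesis, gave 379.2 and 376.6 on the U937-AE arrays against 968.5 and 1008 on the U937-Mt arrays (2.61-fold lower, 2.55 to 2.68). It was called on all 4 probe sets and under all 4 scalings. SRD5A1, which makes dihydrotestosterone, was at 0.53 and was called higher with equal medians (0.80) and spike-ins (0.87). HSD17B7 (-0.71) and PTGES2 (-0.56) were lower and were called under none of the 4 scalings. SRD5A3 was not analysed here. Metallothioneins and zinc genes respond to the zinc that both cell lines received. None of 9 was called, and their median was -0.52, with SLC30A1, a zinc exporter, at -0.65 and called lower after quantile normalization (-0.72). MT1E, MT1F, MT1G, MT1H, MT1X and MT2A were read from _x_at probe sets, whose signal these genes may share. All 9 genes of this list lay between -0.65 and -0.36 as deposited. Their median was -0.25 with equal medians, -0.17 with equal spike-ins and -0.15 after quantile normalization, where MT1F (0.023) was no longer lower and MT2A was at 0. The part of zinc uptake in the values of HMOX1 and the other genes was not tested.

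Genes with the pattern most like AKR1C3 over the 4 arrays were DYNC1I1, AKR1C2, AKR1C1, RNLS and H3-3A, by root mean square distance of the mean-centred log2 signals (0.14, 0.29, 0.29, 0.70 and 0.70). DYNC1I1, a dynein chain, gave 2670 and 2682 on the U937-AE arrays against 147.6 and 179.1 on the U937-Mt arrays. Its U937-Mt signals lay near the floors of those arrays, 146.8 and 153.6, which limits what its distance can say. DYNC1I1 was the only gene nearer to AKR1C3 than the neighbouring reductases. For HMOX1 they were SUCNR1, ARG2, RPL27A, RORB and CD48, at distances from 0.10 to 0.15. SUCNR1, the succinate receptor, gave 3744 and 3688 against 783.8 and 836.8, and ARG2, the mitochondrial arginase, 941.3 and 1083 against 209.9 and 201.7. With 4 arrays of 2 pools the measure reads little more than the size of the difference.

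Markers of the cell type were read beside these results. Of 10 myelomonocytic markers 8 had a probe set, 5 were measured and 3 were called lower, namely MPO, LYZ and ITGAM, while CD4 (-0.10) and CSF1R (-0.78) were not called. LYZ was not called with equal medians (-0.76) or equal spike-ins (-0.69). The summed signal of the 8 was 6186 to 6763 in U937-AE against 21269 to 22746 in U937-Mt. Most of that drop is MPO, which gave 1898 and 1558 on the U937-AE arrays against 16117 and 14591 on the U937-Mt arrays. ANPEP, FCGR1A and CD14 were below the floor on all arrays. Of the markers of the lineage, MPO, LYZ, CD4, CSF1R and ITGAM were thus measured and CD14 was not, and CD33 and CD68 were not analysed here. In pools of cells, fewer cells of a type and less RNA per cell cannot be told apart, and the part of this difference in the results above was not tested. Epithelial and hepatocyte markers were read because both tissues are rich in AKR1C enzymes. EPCAM, CDH1, KRT18, KRT19 and ALB were below the floor on all arrays. KRT8, the remaining epithelial marker, was above the floor on all arrays (log2 difference -0.08), and its signals overlapped between the cell lines. Of the hepatocyte markers, TTR was above the floor on both U937-Mt arrays and on no U937-AE array (-0.58). APOA1 was above it on 1 array of each pool (-0.23), and FGB on 1 U937-AE array only (-0.26). The epithelial list summed to 345.3 and 429.2 on the U937-AE arrays, while the U937-Mt arrays gave sums of 515.5 and 569.5. For the hepatocyte list the sums were 910.7 and 1050 with AML1/ETO, and 1355 and 1299 with the empty vector. Signals below the floor enter these sums. Most of each hepatocyte sum was SERPINA1, at 626.6 and 681.4 in the first line and 819.7 and 946.5 in the second. Both pools came from cultured U937 lines and not from tissue, and a link of these markers to the AKR1C signals was not tested. T cell sums were 317.4 to 483.4 against 452.4 to 509.6, and B cell sums 1369 to 1675 against 1356 to 1452. Erythroid sums were 446.5 to 556.2 against 401.8 to 491.4. Measured were 1 T cell, 3 B cell and 2 erythroid markers. No gene of these 5 lists was called as deposited, and CD79B was called higher with equal spike-ins (0.97).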

How the data were processed

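U937-AE and U937-Mt cells were compared on 4 Affymetrix HG-U133 Plus 2.0 arrays, 2 copies for each pool of 3 RNA extractions. The values that the authors deposited are linear signal intensities, 1 for each probe set on each array. They come from GCOS with its defaults, which subtracts background, weighs perfect match against mismatch probes and sets a common trimmed mean for the arrays. For GCOS no version was found in the sources used. The number of arrays limits the precision.

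The value table holds 54675 probe sets, of which 62 are controls. In the annotation table used, 41097 probe sets have 1 gene symbol, 1801 several and 11777 none, and symbols were updated through the gene identifier (41043 updated, 54 kept). A floor at the 50th percentile of each array, log2, and a call where all 4 comparisons were above 1.5-fold followed, after the study's comparison of each sample chip with both reference chips at that cutoff. Of several probe sets for a gene, the one of highest mean log2 signal before flooring was taken. The rule was tested on simulated data.

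The genes and lists were chosen with earlier results of these data known. Named were all 10 genes with each probe set, RUNX1T1, the regulators and aldo-keto reductases above the floor on at least 1 array, up to 5 called genes of each other list, 5 neighbours on each side, and the 5 genes most like AKR1C3 and HMOX1. Columns of other samples numbered 0. Some items are left out of the text.

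Alternatives were quantile normalization, equal medians, equal spike-ins, other floors (none, or the 25th or 75th percentile), 2-fold, the mean difference, the same-numbered arrays as a block, leaving out each array, other choices of probe set, limma, and the methods' t-test with 2-fold. The steps used Python 3.11.15, numpy 2.4.6, pandas 2.3.3, scipy 1.17.1, matplotlib 3.10.9, biopython 1.88 and R 4.3.3 with limma 3.58.1. Sequences are from RefSeq.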

Additional observations from a re-analysis of the deposited data

How the results depend on the processing

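AKR1C3 and HMOX1 were called higher under each of 18 alternatives except the methods' t-test after Benjamini-Hochberg, which called none of the genes of the array. Without that adjustment, at p under 0.05 and 2-fold, it called 131 genes higher and 385 lower. Of the 10 genes it called 4 higher and 0 lower. Limma, whose p covers the spread between array copies only, called 5 of the 10 higher and 1 lower. Over all genes of the array limma called 513 higher and 1142 lower. When _x_at and _s_at probe sets were left out, AKR1B10 and NQO1 had no probe set left. Of the 8 remaining genes 2 were called higher, and AKR1C1 changed to -0.058 and AKR1C2 to -0.27. From the mean of all probe sets of a gene AKR1C1 was 1.28 and AKR1C2 2.36, both still called higher. Without a floor 10 probe sets were higher and 4 lower, with 1555856_s_at of AKR1C1 (1.22) and 1561080_at of TXNRD1 (-1.86) added. Over all probe sets of the array 1744 were then higher and 4809 lower. Under a 75th percentile floor, 1555854_at and 201467_s_at of NQO1 changed to -0.10, which is the difference of the floors there. GCLM kept its sign in all (-1.10 to -0.60). It was not called at 2-fold, by the methods' t-test, or with equal medians or spike-ins. Each of these gave 0 of the 10 genes lower. Of the probe sets, 0 were called lower at 2-fold, with equal spike-ins or after Benjamini-Hochberg, 1 with equal medians or by the methods' t-test, and 0 were called higher after Benjamini-Hochberg.

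Of the other NRF2 pathway genes (1 higher and 4 lower), 5 and 1 were called with equal spike-ins, 4 and 2 with equal medians, 2 and 4 with a 25th percentile floor, 3 and 4 without a floor, 1 and 1 at the 75th percentile, 1 and 1 at 2-fold or by the methods' t-test, 0 and 0 after Benjamini-Hochberg, 1 and 8 by the mean difference, and 2 and 1 without the suffixes _x_at and _s_at. These counts are over the 65 genes with a probe set, and over 51 without the suffixes. Over all genes of the array the mean difference called 624 higher and 1806 lower, and no floor 577 and 1687. The 25th percentile floor gave 455 and 1345, and the 75th percentile floor 240 and 373. At 2-fold 98 and 263 were called, and without the suffixes _x_at and _s_at 264 and 605. Of the other aldo-keto reductases (1 and 1), 0 were called higher at 2-fold, at the 75th percentile, from the mean of the probe sets, by the methods' t-test before and after adjustment, and without the suffixes. There, 0 were called lower at 2-fold, with equal medians or spike-ins, from the mean of the probe sets and by both forms of the methods' t-test.

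Leaving out 1 array at a time gave 4 to 5 of the genes higher and 1 lower, 9 to 10 probe sets higher and 3 lower, and 1 aldo-keto reductase in each direction. For the other NRF2 pathway genes it gave 1 to 2 higher, with 2 without the first U937-Mt array, and 5 to 7 lower, with 7 without the first U937-AE array. Over all genes of the array it gave 456 to 557 higher and 1137 to 1591 lower. Over all probe sets it gave 1057 to 1315 higher and 2256 to 3378 lower. The array numbers name copies and do not pair the pools. With the same-numbered arrays as a replicate block, 4 of the 10 genes were higher and 1 lower, and 9 probe sets higher and 3 lower. It gave 1 and 6 of the NRF2 pathway genes and 1 and 1 of the aldo-keto reductases. Over all features of the array it gave 398 and 1002 genes, and 869 and 1953 probe sets. Signals near the floor limit what can be said of AKR1B10, AKR1C4 and the _at probe sets of AKR1C1 and AKR1C2.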
